A study of Homo sapiens with 8 samples.

Results

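The genes described here are the vascular endothelial growth factors VEGFA, VEGFB and VEGFC, the angiopoietins ANGPT1 and ANGPT2, the angiopoietin-like factor ANGPTL4, the VEGF receptors KDR and FLT1, and the neuropilins NRP1 and NRP2. They were taken by name: every probe on the array that is not a control and carries one of these 10 gene names was included, each probe apart. This gave 14 probes of 10 genes out of 34127 probes. VEGFA and NRP1 had 2 probes each, NRP2 had 3, and the remaining genes had 1. The rule itself uses no measured value.

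The mRNA was profiled by 8 one-color Agilent arrays from 2 pancreatic ductal adenocarcinoma cell lines, MIA PaCa-2, which was established from a primary tumor, and Capan-1, which was established from a liver metastasis. In each line, 2 arrays carried RNA of cells taken 48 h after transfection with siRNA against HOXB7 at 10 nM, and 2 arrays carried RNA of parental cells. The control cells were parental and untreated, so the transfection itself differed between the groups along with the siRNA, and no array of cells given the scrambled siRNA was analysed here. The duplicates are not stated to come from separate cultures, so the p-values measure the spread between these arrays, which may be technical.

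VEGF ligands are secreted proteins that act on receptor tyrosine kinases of endothelial cells, and VEGFA is the main driver of new vessel growth in tumors. Angiopoietins act on the endothelial receptor TEK and set how stable a vessel is, and neuropilins are co-receptors that bind VEGF ligands as well as semaphorins. HOXB7 is a homeobox transcription factor that has been reported to raise the expression of angiogenic factors in other tumors. The comparison of silenced with parental cells addresses whether the mRNA of these factors moves with HOXB7 in pancreatic cancer cells.

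Each probe is a 60-base oligonucleotide, and its value depends on which transcripts hold that stretch. The genes with several probes are the ones where this matters most below, so the junction-crossing probes of VEGFA and NRP1 and the NRP2 probes are printed here 5' to 3', as the array annotation gives them with hg18 positions. VEGFA probe A_23_P70398 lies at chr6:43854201-43854612 on the plus strand and NRP1 probe A_24_P135322 at chr10:33536628-33542356 on the minus strand. These spans of 412 and 5729 bases are longer than the oligonucleotide, so both probes cross an exon junction. The NRP2 probes lie on the plus strand at chr2:206367948-206368007, chr2:206316325-206316384 and chr2:206270630-206270689, each within an unbroken stretch of the genome.
VEGFA A_23_P70398: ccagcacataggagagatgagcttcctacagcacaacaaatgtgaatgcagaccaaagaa
NRP1 A_24_P135322: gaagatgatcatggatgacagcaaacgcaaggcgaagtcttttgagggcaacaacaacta
NRP2 A_23_P393727: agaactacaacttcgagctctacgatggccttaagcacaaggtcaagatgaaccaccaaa
NRP2 A_24_P50801: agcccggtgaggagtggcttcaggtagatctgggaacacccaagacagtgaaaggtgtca
NRP2 A_33_P3297415: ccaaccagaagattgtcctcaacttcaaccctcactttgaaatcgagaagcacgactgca

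The other VEGFA probe, A_24_P12401, lies downstream at chr6:43861489-43861548 and has a GC content of 20%, against 45% in A_23_P70398. The other NRP1 probe, A_24_P928052, lies at chr10:33506942-33507001 on the minus strand, which is also further along the transcript than its partner. Exon and untranslated region annotation was not given for these positions in the sources used here.

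Levels are given as log2 of the background-subtracted intensity minus the 75th percentile of the same array, so a level of 0 is as bright as that percentile and negative levels are dimmer. The median spot intensity lay between 39.55 and 54.04 on the 8 arrays, and between 69.2% and 74.3% of spots were well above background. Each line had a slide and a scan of its own, so slide and line cannot be told apart. According to the paper, the lines were also grown in different media with different serum content, so medium and line cannot be told apart. Within each slide the siRNA arrays took the first positions and the parental arrays the last, so position and treatment cannot be told apart either. HOXB7, the target of the siRNA, had levels of -7.76 and -7.78 on MIA PaCa-2 siRNA arrays against -4.82 and -4.09 on the parental arrays. It was not well above background on the siRNA arrays and was at least 2.85-fold lower there (limma adjusted p = 0.0172). In Capan-1 the levels were -5.26 and -4.80 with siRNA against -2.48 and -2.34 in parental cells, a log2 difference of -2.62 ± 0.26 (SE) that did not pass after adjustment (limma adjusted p = 0.12). The MIA PaCa-2 call was lost without its first siRNA array (adjusted p = 0.0503) and without each of the Capan-1 arrays, which share the estimate of the spread (adjusted p = 0.058 to 0.0813), and the Capan-1 difference passed without its second siRNA array (adjusted p = 0.0447). With normexp background correction the MIA PaCa-2 difference was -0.10 (adjusted p = 0.598) and the Capan-1 difference -0.66 (adjusted p = 0.0342).

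As tumor lines, both were checked against cell type markers. All 8 ductal epithelial genes looked up (KRT7, KRT8, KRT18, KRT19, EPCAM, CDH1, MUC1 and ELF3) were well above background in Capan-1, whereas CDH1 and EPCAM were not in MIA PaCa-2, by either treatment. The endothelial genes PECAM1, ERG and CLDN5 were well above background in none of the groups. Of the 8 endothelial markers, MIA PaCa-2 showed 5 and Capan-1 showed 3. In MIA PaCa-2 their summed intensity was 346 to 588 with siRNA and 607 to 764 in parental cells. In Capan-1 it was 152 to 165 and 164 to 206. Summed marker intensities are not scaled between arrays. ROBO4 alone gave 362 and 109 of the MIA PaCa-2 siRNA sums and 435 and 338 of the parental sums. With siRNA, 0 of the 5 endothelial probes tested in MIA PaCa-2 were called, against 1.93% of all probes tested. Of the 6 fibroblast markers, MIA PaCa-2 showed 4 with siRNA and 3 in parental cells, and Capan-1 showed 3 and 1, with LUM and PDGFRB in none of the groups. Their summed intensity was 3875 to 4591 over the MIA PaCa-2 arrays and 35.0 to 43.0 over the Capan-1 arrays. In MIA PaCa-2 most of it came from the collagen gene COL1A2, whereas in Capan-1 the collagen gene COL1A1 gave the largest part. The COL1A2 level was 3.79 to 3.96 in MIA PaCa-2 and -6.23 to -5.53 in Capan-1. The part of these markers in the differences between the lines was not tested.

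The lines expressed different sets of these genes. VEGFA, VEGFB, ANGPTL4 and NRP1 were well above background on all 8 arrays. VEGFC was detected in MIA PaCa-2 only, NRP2 and ANGPT1 in Capan-1 only, and ANGPT2 on the Capan-1 siRNA arrays only. KDR passed the background call on 1 siRNA array and 1 parental array of Capan-1, and FLT1 on none of the 8 arrays. Between the parental lines, 10 of the 11 probes tested differed (limma, Benjamini-Hochberg adjusted p under 0.05 over 24866 probes), 2 higher and 8 lower in MIA PaCa-2. Over all probes tested, 70.2% were called in this comparison, so a call between the lines is the common case. The levels did not overlap between the parental lines for 10 of the 11 probes, against 86.5% of all probes tested, and the median log2 difference of the 11 probes was -1.08 against 0.11 over all probes. In RNA of a whole culture, fewer expressing cells and less RNA per cell cannot be told apart.

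**Figure D1:**
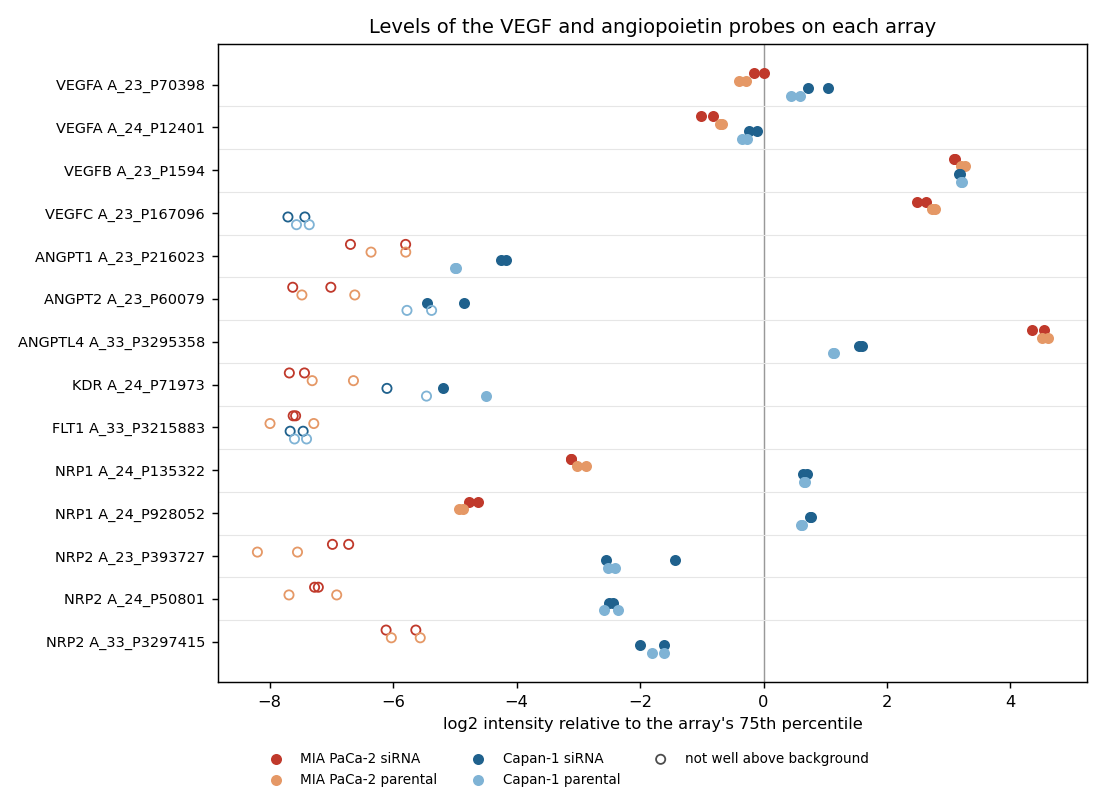
Level of each probe on each of the 8 arrays (log2 intensity relative to the 75th percentile of the array, horizontal axis), with 1 row per probe and 1 point per array colored by group. Open points are arrays on which the probe was not well above background. VEGFC lies at 2.49 to 2.78 on MIA PaCa-2 arrays and below -7.3 on Capan-1 arrays, and the NRP1 and NRP2 probes lie to the right in Capan-1.

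Among the ligands, VEGFC, which drives lymphatic vessel growth, showed the widest gap. Its levels were 2.63 and 2.49 on MIA PaCa-2 siRNA arrays, 2.78 and 2.73 on the parental arrays, -7.70 and -7.43 on the Capan-1 siRNA arrays and -7.36 and -7.57 on its parental arrays. All 4 MIA PaCa-2 arrays were bright and no Capan-1 array was above background, with intensities of 1450 to 2258 against less than 2. Parental MIA PaCa-2 was at least 503-fold higher than parental Capan-1 (log2 means 2.76 and -7.46, limma adjusted p = 2.06e-07). With normexp background correction, which adds an offset of 50 to every intensity and so draws dim probes together, the log2 difference was 4.98, below that bound.

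VEGFA, the main angiogenic ligand, went the other way by a small amount. Probe A_23_P70398 had levels of -0.29 and -0.40 in parental MIA PaCa-2 and 0.59 and 0.44 in parental Capan-1. Both parental MIA PaCa-2 arrays lay below both parental Capan-1 arrays, and the log2 difference was -0.86 ± 0.14 (SE, limma adjusted p = 0.00191). Probe A_24_P12401 had levels of -0.70 and -0.67 against -0.35 and -0.27, a difference of -0.38 ± 0.10 (SE, limma adjusted p = 0.0169). This second call was lost without scaling between arrays (-0.35, adjusted p = 0.167) and without any one of the parental arrays: the first or second of MIA PaCa-2 (-0.36 and -0.39, adjusted p = 0.0588 and 0.0515), or the first or second of Capan-1 (-0.41 and -0.34, adjusted p = 0.0527 and 0.0864). In order of mean level, probe A_23_P70398 ran from parental MIA PaCa-2 (-0.35 ± 0.08, SD, n = 2) through siRNA-treated MIA PaCa-2 (-0.07 ± 0.12) and parental Capan-1 (0.52 ± 0.11) to siRNA-treated Capan-1 (0.88 ± 0.23). The neighbors of the same line in this order did not differ after adjustment.

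VEGFB, a ligand of FLT1 with a role in fatty acid uptake and heart muscle vessels, was level across the lines. Its probe A_23_P1594 had levels of 3.08 and 3.11 on MIA PaCa-2 siRNA arrays, 3.20 and 3.26 on the parental arrays, 3.17 and 3.18 on the Capan-1 siRNA arrays and 3.22 and 3.21 on its parental arrays. The 8 values spanned less than 0.2, and the parental groups overlapped. The difference between the parental lines was 0.02 (95% interval -0.17 to 0.20, limma adjusted p = 0.859), and with quantile normalization or spike-in scaling it took the other sign.

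ANGPTL4, a secreted inhibitor of lipoprotein lipase that is induced by low oxygen and fasting, was also higher in MIA PaCa-2. Its levels were 4.35 and 4.54 with siRNA and 4.61 and 4.50 in parental MIA PaCa-2, and 1.60 and 1.54 with siRNA and 1.13 and 1.14 in parental Capan-1. Every MIA PaCa-2 array lay far above every Capan-1 array, and the parental lines differed by 3.42 ± 0.10 (SE, 10.7-fold, limma adjusted p = 1.35e-06).

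The angiopoietins that act on TEK were dim. ANGPT1, the ligand that activates TEK, had levels of -6.69, -5.80, -6.36 and -5.80 in MIA PaCa-2, on none of which it passed the background call, and of -4.25 and -4.18 with siRNA and -4.99 and -5.00 in parental Capan-1. All 4 Capan-1 arrays were above all 4 MIA PaCa-2 arrays. Parental MIA PaCa-2 was at least 2.04-fold lower than parental Capan-1 (log2 means -6.08 and -4.99, limma adjusted p = 0.0217), a call that was lost with normexp background correction (-0.16, adjusted p = 0.223), with quantile normalization (-1.04, adjusted p = 0.0686), and without the first parental array of MIA PaCa-2 (-0.80, adjusted p = 0.109) or the first or second of Capan-1 (-1.08 and -1.09, adjusted p = 0.0806 and 0.0753). ANGPT2, which can block or mimic ANGPT1 depending on the setting, had levels of -7.01 and -7.63 with siRNA and -6.62 and -7.48 in parental MIA PaCa-2, and of -5.45 and -4.85 with siRNA and -5.38 and -5.78 in parental Capan-1. Only the siRNA arrays of Capan-1 were well above background, so the parental lines were not compared.

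The VEGF receptors KDR and FLT1 were at or near background in these tumor cells. KDR, the receptor that carries most of the VEGFA signal in endothelium, had levels of -7.44, -7.68, -6.64 and -7.31 in MIA PaCa-2 and of -5.19, -6.10, -5.46 and -4.50 in Capan-1. The Capan-1 values straddled the background call, which the first siRNA array and the second parental array passed. FLT1, a high-affinity receptor that also acts as a decoy, stayed between -8.00 and -7.29 on all 8 arrays. Neither gene met the rule for a test in any comparison.

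The neuropilins were the members that set Capan-1 apart on the receptor side. NRP1 probe A_24_P135322 had levels of -3.11 and -3.12 with siRNA and -2.88 and -3.02 in parental MIA PaCa-2, against 0.70, 0.64, 0.66 and 0.67 in Capan-1. The lines did not overlap, and the parental difference was -3.61 ± 0.09 (SE, 12.2-fold, limma adjusted p = 7.49e-07). NRP1 probe A_24_P928052 had levels of -4.63 and -4.78 with siRNA and -4.93 and -4.87 in parental MIA PaCa-2, against 0.77 and 0.75 with siRNA and 0.63 and 0.60 in parental Capan-1. It gave a larger parental difference of -5.51 ± 0.09 (SE, 45.6-fold, limma adjusted p = 3.05e-07). With normexp background correction the differences of the probes were -2.58 and -2.73, so the gap between them nearly closed.

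NRP2, the neuropilin that pairs with VEGFC signaling in lymphatic vessels, was read by 3 probes, none of which was well above background on any MIA PaCa-2 array and all of which were on every Capan-1 array. Probe A_23_P393727 had levels of -2.41 and -2.52 in parental Capan-1, probe A_24_P50801 -2.58 and -2.36, and probe A_33_P3297415 -1.81 and -1.62. The corresponding parental MIA PaCa-2 levels were -8.20 and -7.55, -6.91 and -7.69, and -6.03 and -5.56. Parental MIA PaCa-2 was at least 12.0-fold lower by the first (limma adjusted p = 5.37e-05) and at least 12.0-fold by the second (adjusted p = 1.22e-05). By the third it was 17.0-fold lower (adjusted p = 2.37e-05). That fold is an estimate, because the MIA PaCa-2 signal exceeded the lowest signal above background on both arrays. With normexp background correction the log2 differences were -0.89, -0.89 and -1.15, smaller than these folds but still past the threshold. NRP2 was detected in Capan-1, where VEGFC was not.

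**Figure D2:**
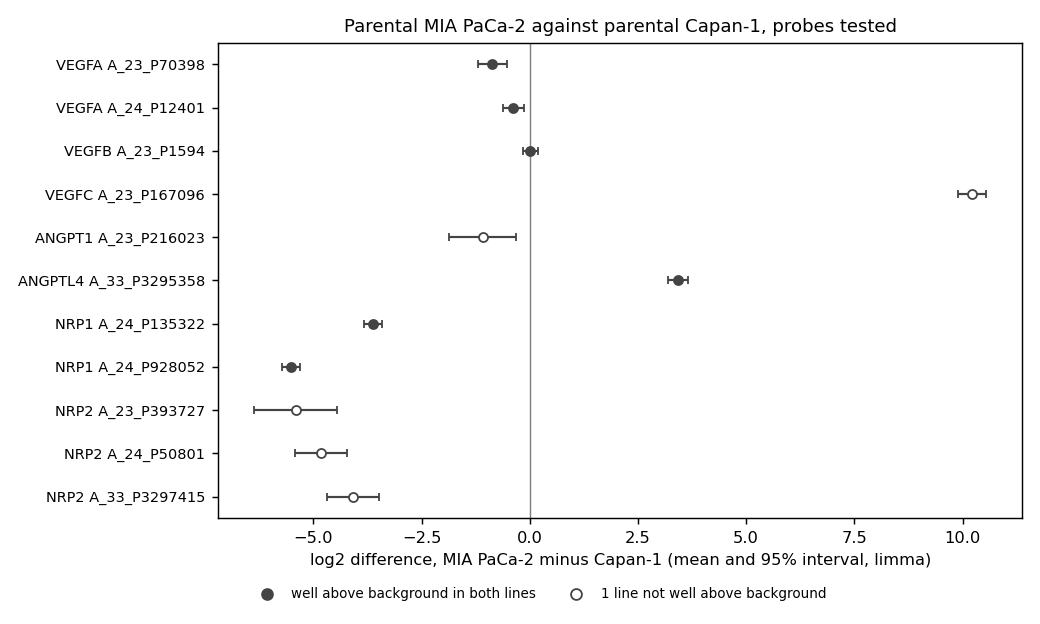
Log2 difference of parental MIA PaCa-2 minus parental Capan-1 (horizontal axis) for the 11 probes tested, 1 row each, with the limma mean and 95% interval over 2 arrays per group. Open points are probes that 1 line did not show well above background, whose fitted value is not a bound. VEGFC (10.2) and ANGPTL4 (3.42) lie to the right, VEGFB at 0.02, and the VEGFA, ANGPT1, NRP1 and NRP2 probes to the left.

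After HOXB7 silencing in MIA PaCa-2, no probe of these genes changed past the threshold. Of the 14 probes, 7 of 5 genes could be tested, and 0 were called by limma, against 1.93% of the 23622 probes tested. At an unadjusted p under 0.05 the count was also 0, against 20.5% of all probes, and by the interval rule described below it was 0 against 0.538%. The siRNA and parental levels did not overlap for 6 of the 7 probes, against 51.4% of all probes tested. The 7 differences ranged from -0.23 to 0.27, with a median of -0.13 against 0.02 over all probes, 2 above 0 and 5 below, and adjusted p-values lay between 0.275 and 0.579.

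For VEGFA in MIA PaCa-2 the probes pointed in opposite directions. Probe A_23_P70398 had levels of 0.01 and -0.16 with siRNA against -0.29 and -0.40 in parental cells, so both siRNA arrays were above both parental arrays. The difference was 0.27 (95% interval -0.07 to 0.61, limma adjusted p = 0.332). Probe A_24_P12401 had levels of -1.01 and -0.82 against -0.70 and -0.67, so both siRNA arrays were below both parental arrays, with a difference of -0.23 (95% interval -0.48 to 0.02, limma adjusted p = 0.275).

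The other ligands of MIA PaCa-2 had small differences. VEGFC was lower by 0.20 on the log2 scale in the siRNA arrays (difference -0.20, 95% interval -0.52 to 0.12, limma adjusted p = 0.445). VEGFB differed by -0.13 (95% interval -0.31 to 0.05, limma adjusted p = 0.381) and ANGPTL4, the only one of the 7 whose groups overlapped, by -0.11 (95% interval -0.34 to 0.13, limma adjusted p = 0.579). The NRP1 probes again had opposite signs, -0.17 (95% interval -0.38 to 0.04) for A_24_P135322 and 0.19 (95% interval -0.02 to 0.41) for A_24_P928052, with limma adjusted p-values of 0.32 and 0.276. Without scaling between arrays, where the median of all probes shifted to -0.20, the second of these was -0.02.

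In Capan-1, 11 probes of 7 genes could be tested, and limma called 0 of them, against 0.0043% of 23278 probes. At an unadjusted p under 0.05 there were 3, ANGPTL4, ANGPT1 and VEGFA probe A_23_P70398, all higher with siRNA, against 12.5% of all probes in either direction. The levels of the groups did not overlap for 6 of the 11 probes, against 54.2% of all probes tested. The median difference was 0.15 against 0.00 over all probes. The difference was above 0 for 8 of the 11 probes, of which 6 turned below 0 with spike-in scaling, where the median of all probes shifted to -0.46.

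ANGPTL4 had the smallest p-value of the genes in Capan-1. Its levels of 1.60 and 1.54 with siRNA lay above the 1.13 and 1.14 of parental cells, with little spread in either pair. The difference was 0.44 ± 0.10 (SE, 95% interval 0.20 to 0.67), which did not pass after adjustment (limma adjusted p = 0.234), and it was -0.01 with spike-in scaling. By an interval rule after the study's methods, in which a probe is called when both siRNA to parental ratios leave the range that holds 99% of the ratios between the parental arrays at that intensity, ANGPTL4 was the only one of the 11 probes called. Its log2 ratios were 0.47 and 0.41 against a limit of 0.39, and this rule called 1.85% of all probes tested in Capan-1. The limit rests on a single pair of parental arrays. The methods further ask that a gene be read by 2 or more probes, with a majority giving signal and no disagreement among them. That was left out here, and ANGPTL4, with 1 probe, could not have met it.

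VEGFA was higher by both probes in Capan-1, without passing after adjustment. Probe A_23_P70398 had levels of 1.04 and 0.72 with siRNA against 0.59 and 0.44 in parental cells, a difference of 0.37 ± 0.14 (SE, 95% interval 0.03 to 0.71, limma adjusted p = 0.379). Probe A_24_P12401 had levels of -0.10 and -0.24 against -0.35 and -0.27, a difference of 0.14 ± 0.10 (SE, 95% interval -0.11 to 0.39, adjusted p = 0.603). Neither pair of groups overlapped. Without scaling between arrays the second probe was at -0.02, and with spike-in scaling the probes were at -0.09 and -0.32.

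The dim angiopoietins of Capan-1 had the widest intervals among the ligands. ANGPT1, at -4.25 and -4.18 with siRNA against -4.99 and -5.00, differed by 0.78 ± 0.31 (SE, 95% interval 0.01 to 1.55, limma adjusted p = 0.398), and by 0.25 with normexp background correction. ANGPT2 was well above background with siRNA and on neither parental array. Its groups overlapped, and its mean was 1.34-fold higher with siRNA (log2 means -5.15 and -5.58, limma adjusted p = 0.666). This fold is an estimate and not a bound, because the parental signal exceeded the lowest signal above background on both arrays. VEGFB differed by -0.04 (95% interval -0.22 to 0.14, limma adjusted p = 0.872), and VEGFC was not detected in either group.

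The neuropilin probes, all detected in Capan-1, were not called with siRNA. NRP1 differed by 0.00 (95% interval -0.21 to 0.21, limma adjusted p = 0.992) for A_24_P135322 and by 0.15 (95% interval -0.07 to 0.36, adjusted p = 0.529) for A_24_P928052. NRP2 probe A_23_P393727 had levels of -1.43 and -2.55 with siRNA against -2.41 and -2.52, so that its difference of 0.48 (95% interval -0.48 to 1.43, limma adjusted p = 0.642) came from the first siRNA array, without which it was -0.08. The other NRP2 probes differed by 0.00 (95% interval -0.60 to 0.60) and -0.09 (95% interval -0.69 to 0.50), with limma adjusted p-values of 0.999 and 0.91.

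**Figure D3:**
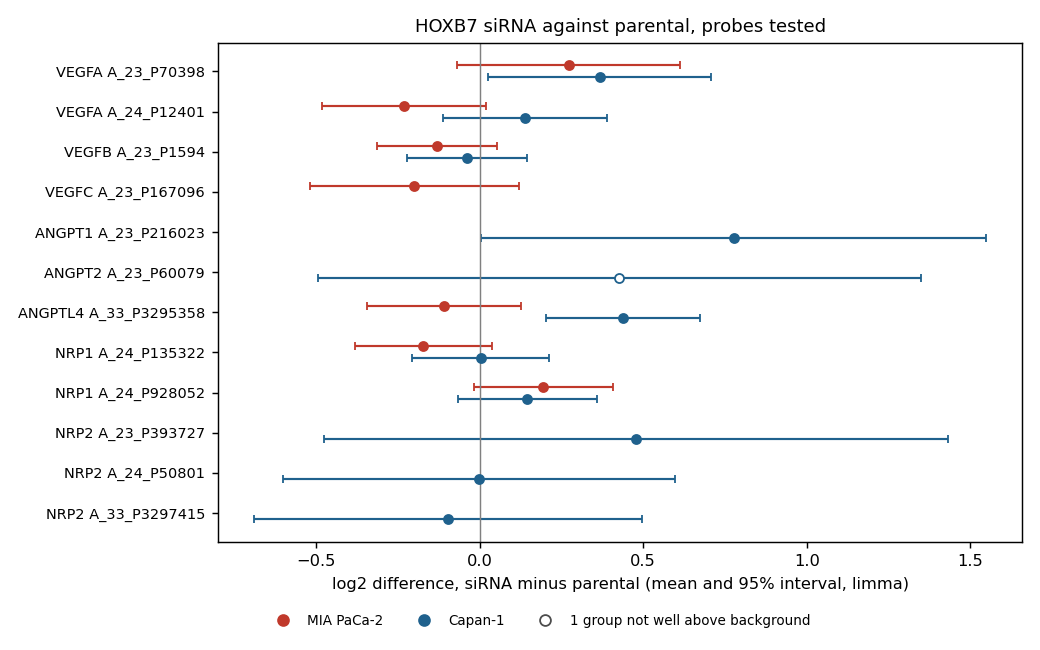
Log2 difference of HOXB7 siRNA minus parental cells (horizontal axis) for the probes tested in MIA PaCa-2 (7) and Capan-1 (11), with the limma mean and 95% interval over 2 arrays per group. The open point is ANGPT2, which parental Capan-1 did not show well above background. All MIA PaCa-2 intervals include 0, and those of ANGPTL4, VEGFA probe A_23_P70398 and ANGPT1 in Capan-1 lie above 0 before adjustment over all probes.

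The effect of the siRNA was also compared between the lines. Of 12 probes tested, 0 passed after adjustment, against 0.00786% of 25448 probes, and 2 had an unadjusted p under 0.05, against 11.1%. These were ANGPTL4, whose siRNA effect was -0.11 and 0.44 in MIA PaCa-2 and Capan-1 (difference -0.55 ± 0.14, SE, limma adjusted p = 0.263), and VEGFA probe A_24_P12401, at -0.23 and 0.14 (difference -0.37 ± 0.14, SE, limma adjusted p = 0.435). The latter took the other sign with spike-in scaling (0.11), where the median of all probes shifted to 0.50. The siRNA effect was therefore not shown to differ between the lines for any of these genes.

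Since several genes had probes that moved unequally, the ratio of both probes was taken within each array, which leaves out all scaling between arrays. Only changes of this ratio between groups can be read, because probes differ in how strongly they bind. For VEGFA the log2 ratio of A_23_P70398 over A_24_P12401 was 1.03 and 0.66 with siRNA and 0.41 and 0.27 in parental MIA PaCa-2, and 1.14 and 0.97 with siRNA and 0.94 and 0.71 in parental Capan-1. In both lines the siRNA arrays had the higher ratios and the groups did not overlap. Separation of this kind was common: among single probes tested it held for 51.4% (MIA PaCa-2) and 54.2% (Capan-1). How often it holds for ratios of probe pairs was not computed. For NRP1 the log2 ratio of A_24_P135322 over A_24_P928052 was 1.51 and 1.65 with siRNA and 2.05 and 1.85 in parental MIA PaCa-2, and -0.07 and -0.11 with siRNA and 0.03 and 0.07 in parental Capan-1. Here the siRNA arrays had the lower ratios in both lines, and the lines differed far more than the treatments, a gap between lines that nearly closed with normexp background correction. These ratios were looked at after the values of the probes had been seen, and they were not tested. Neither the VEGFA nor the NRP1 ratio is therefore read as an effect of the siRNA.

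**Figure D4:**
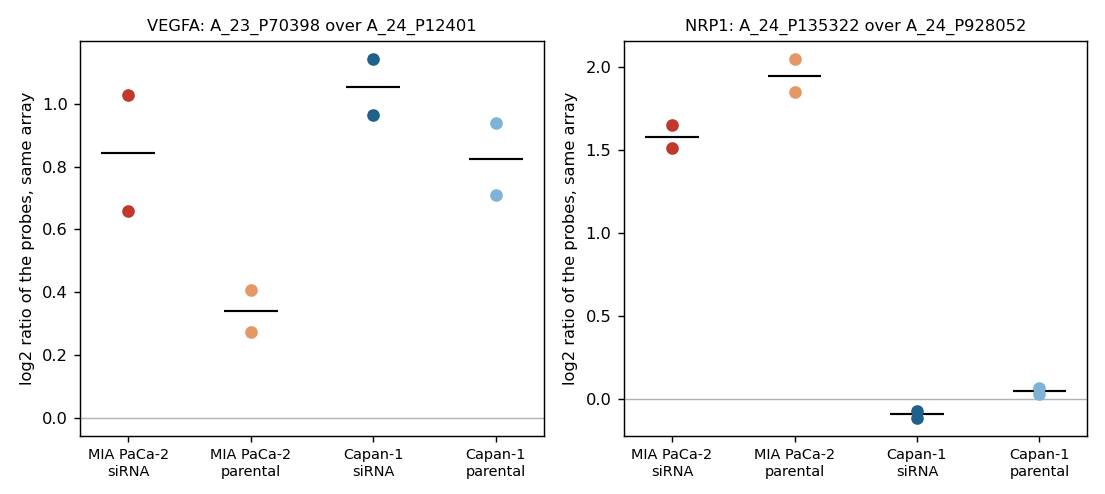
Log2 ratio of the 2 probes of VEGFA (left) and of NRP1 (right) on the same array (vertical axis), by group, with 1 point per array and a bar at the mean of the 2 arrays. The VEGFA ratio is lowest in parental MIA PaCa-2 (0.27 and 0.41), and the NRP1 ratio lies above 1.5 for MIA PaCa-2 and near 0 for Capan-1.

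Over the 8 arrays, the genes whose level was most like VEGFA probe A_23_P70398, among 20285 probes well above background on every array, were TOMM34 (r = 0.99), a mitochondrial import chaperone, MFN1 (r = 0.99), a mitochondrial fusion protein, and PPIL5 (r = 0.99). These arrays are 4 pairs from 2 lines on 2 slides, so the correlations are given as a description.

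The remaining genes of these pathways are given list by list. Of the other VEGF ligands and receptor, PGF, a ligand of FLT1, differed by 0.17 (MIA PaCa-2) and 0.20 (Capan-1) with siRNA (limma adjusted p = 0.377 and 0.463), and it was 0.39 higher in parental MIA PaCa-2 (adjusted p = 0.0122). FLT4, the receptor of VEGFC, was well above background on all 8 arrays. It differed by 0.13 and 0.15 with siRNA and by 0.76 between parental lines (adjusted p = 0.12). The angiopoietin receptors TEK and TIE1 were well above background in none of the groups. Of the same list, ANGPT4 was higher in parental MIA PaCa-2 than in parental Capan-1 (1.70). PTPRB, a phosphatase that acts on TEK, was at least 5.94-fold lower. With siRNA, 0 probes of the list were called in either line, against 1.93% (MIA PaCa-2) and 0.0043% (Capan-1) of all probes tested. Among 6 other angiopoietin-like genes, 1 could be tested, and it was called in no comparison.

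Partners of the neuropilins, the plexin receptors and class 3 semaphorins with the adaptor GIPC1, had 0 of 12 probes called with siRNA for MIA PaCa-2 and 0 of 10 for Capan-1. Over all probes tested, 1.93% and 0.0043% were called, so 0 calls in a list this short is the common case. Between parental lines 9 of 12 were called higher in MIA PaCa-2 and 1 lower, against 70.2% of all probes called in either direction. Most of these probes were opposite in sign to NRP1 and NRP2. PLXND1 was 5.49 higher, SEMA3D at least 62.1-fold, PLXNA4 at least 6.12-fold by probe A_33_P3321025, SEMA3A 1.88 and PLXNA1 1.13, with PLXNA3, SEMA3F, SEMA3G and GIPC1 between 0.39 and 0.66, and SEMA3B was lower. The other PLXNA4 probe tested, A_33_P3321034, differed by -0.42 (limma adjusted p = 0.29). The median of the list was 0.63, against 0.11 over all probes.

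The oxygen-sensing regulators, which control VEGFA and ANGPTL4 transcription under low oxygen, had 1 of 12 probes called with siRNA for MIA PaCa-2 and 0 of 13 for Capan-1. The call was ARNT, the partner of the hypoxia-inducible factors, which fell by 0.91 on the log2 scale (limma adjusted p = 0.0475), and it was lost whichever single array of the 8 was left out (adjusted p up to 0.165) and with normexp background correction (-0.26, adjusted p = 0.121). HIF1A differed by 0.17 and 0.70 by its probes in MIA PaCa-2 and by 0.15 and 1.09 in Capan-1. The second HIF1A probe, A_33_P3231277, varied between duplicates. Its MIA PaCa-2 levels overlapped, at 0.77 and 1.00 with siRNA and -0.58 and 0.95 in parental cells. In Capan-1 they were 1.31 and 2.09 against 0.55 and 0.66. EPAS1 differed by 0.33 (MIA PaCa-2) and 0.01 (Capan-1), and VHL, which marks the hypoxia-inducible factors for degradation, by 0.01 and 0.00. None of these differences passed the threshold. Between parental lines 6 of 12 were called higher and 5 lower in MIA PaCa-2, against 70.2% of all probes called in either direction. EPAS1 (-4.47), ARNT2 (-5.68 by probe A_23_P83579), EGLN3 (at least 11.7-fold), HIF1A (-1.15 by probe A_24_P56388) and EGLN2 (-0.67) were lower. HIF3A by both probes tested of its 3, HIF1AN, EGLN1, ARNT and VHL were higher by 0.49 to 1.28. The other ARNT2 probe, A_33_P3366195, was not well above background on both arrays of either parental group, so it was not tested. Its mean parental levels lay close together, at -5.56 (MIA PaCa-2) against -5.12 (Capan-1).

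Other factors that HOXB7 has been linked to were compared as well. In MIA PaCa-2, FGF2, an angiogenic growth factor, fell with siRNA: probe A_33_P3419696 had levels of -4.39 and -4.75 against -2.41 and -2.42 (difference -2.15 ± 0.15, SE, limma adjusted p = 0.0166), and probe A_33_P3379886 was at least 3.99-fold lower (adjusted p = 0.0287). IL8, a chemokine that attracts neutrophils and promotes vessel growth, rose, from -2.44 and -2.23 to -1.48 and -1.65 (difference 0.77 ± 0.11, SE, limma adjusted p = 0.0371). These calls rest on the full set of arrays: the first FGF2 probe kept its call in 4 of the 8 fits that left out an array, losing it without each of the Capan-1 arrays (adjusted p = 0.058 to 0.0813), the second kept it in 2 (adjusted p up to 0.0968), and IL8 in 1 (adjusted p up to 0.129). The second FGF2 probe, near background with siRNA, was at -0.10 with normexp background correction (adjusted p = 0.553), where the first was at -0.44 (adjusted p = 0.0317) and IL8 at 0.51 (adjusted p = 0.016). FGF2 was not detected in Capan-1, where IL8 differed by 0.29 (limma adjusted p = 0.377). MMP9, a matrix protease, differed by 0.29 (MIA PaCa-2) and 0.35 (Capan-1) (adjusted p = 0.265 and 0.358), and MMP2 was well above background in none of the groups. Between parental lines, FGF2 was at least 13.9-fold and at least 4.74-fold higher by its probes in MIA PaCa-2, and IL8 (-3.95) and MMP9 (-2.99) were lower.

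Angiogenesis inhibitors had 0 of 5 probes called with siRNA in either line, against 1.93% (MIA PaCa-2) and 0.0043% (Capan-1) of all probes tested. Between parental lines SERPINF1 (7.93), COL18A1 (3.32), the source of endostatin, and VASH1 (1.66) were higher in MIA PaCa-2, and both probes of THBS1 were lower (-1.39 and -1.61). Of the ductal epithelial markers, ELF3 and MUC1 probe A_23_P137856 fell with siRNA in MIA PaCa-2. The log2 differences were -0.93 and -0.92 (limma adjusted p = 0.0321 and 0.0245). Both calls were lost in most of the 8 fits that left out an array, with differences of -1.04 to -0.815 and -0.992 to -0.844. The other MUC1 probe, A_33_P3332215, was not called (-0.52, limma adjusted p = 0.0668). No marker was called in Capan-1. The part of these in the values of the angiogenic genes was not tested.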

How the data were processed

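RNA of MIA PaCa-2 and Capan-1 cells, treated with HOXB7 siRNA or parental, was measured on 8 one-color Agilent arrays, 2 per group, grouped by their labels. The authors scanned the arrays and extracted background-subtracted spot intensity with Agilent Feature Extraction 9.5.3, and deposited these intensity values for each array. They also deposited a table of log2 values, which equals the log2 of the intensity on every array, so the arrays had not been scaled to each other. The scanner annotation names the hg18 build. All columns were matched to samples, and the number of arrays limits the precision.

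Here, the log2 intensity was averaged over spots with the same probe, leaving out outlier flags, and the 75th percentile of the array was subtracted. A comparison covered the probes that both arrays of 1 or more of its groups showed well above background. In R 4.3.3, limma 3.58.1 (lmFit, then eBayes) was fitted to group means over all 8 arrays, and differences were tested two-sided with Benjamini-Hochberg adjustment over all probes tested, at 0.05. The adjusted p-values in the text are from this fit. With 2 arrays against 2, an exact permutation test cannot give a two-sided p below 0.33. For a group with neither array well above background, the fold was computed against the lowest signal above background and is given as "at least". Where the probe's own signal was higher, it was used instead, and where that held on both arrays "at least" was left out. The methods of the study use an interval from parental arrays, which was rebuilt for single probes with a window of 1000 probes as an alternative, without the criteria that the methods set for several probes of a gene. The other alternatives were normexp background correction (offset 50), quantile, spike-in or no scaling, outlier spots kept, the deposited log2 table, other filters on dim probes, an intensity trend in the spread, the lines fitted singly, a block for the replicate number, and each array left out, where the single array of a group takes the spread of the others. For genes that are no members these alternatives were added after seeing the data.

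All members are named, as are genes of the lists past the threshold, PGF, FLT4, TEK, TIE1, HIF1A, EPAS1, VHL, FGF2, IL8, MMP2, MMP9 and the 3 genes most like VEGFA. The rule takes members by gene name alone, but the set of genes and the lists were chosen with earlier results of these data known. The fit was tested on simulated data. Figures were drawn in Python 3.11.15 with matplotlib 3.10.9.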

Additional observations from a re-analysis of the deposited data

Results flagged for a closer look

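VEGFA probe A_24_P12401 was noted because the siRNA arrays moved in opposite directions in the lines: both lay below both parental arrays in MIA PaCa-2 (-1.01 and -0.82 against -0.70 and -0.67) and above both in Capan-1 (-0.10 and -0.24 against -0.35 and -0.27). The difference between the lines was -0.37 on the log2 scale (limma adjusted p = 0.435), so it did not pass after adjustment. With spike-in scaling it was 0.11, where the median of all probes shifted to 0.50. Relative to that median it was -0.39, the same as relative to the median of the main fit. This holds by construction, because the scaling shifts all probes of an array alike. With 2 arrays per group, no single array was tested as an outlier.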

How the results depend on the processing

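Under the alternatives run, 0 member probes were called with siRNA in either line and for the difference between the lines, except that the interval of the parental arrays called 1 in Capan-1 (ANGPTL4). Between parental lines the 10 calls became 5 with the filter that asks for signal on every one of the 8 arrays, which leaves fewer probes tested, 9 with normexp, quantile or no scaling, and 12 with no filter, and were 8 to 10 with an array left out. The replicate numbers did not pair the arrays (correlation of same-numbered deviations 0.02 for MIA PaCa-2, 0.04 for Capan-1), and the replicate block gave 0 member probes for either line and 0 for the difference. No paired analysis was possible between parental lines because the block lies within each line. In MIA PaCa-2 the calls of HOXB7, FGF2, IL8, ARNT, MUC1 and ELF3, checked after seeing the data, were lost with the replicate block (adjusted p = 0.168 to 0.183) and in the line fitted alone (0.11 to 0.132). Those of IL8, ARNT, MUC1 and ELF3 were also lost without scaling (0.108 to 0.24), with spike-in scaling (0.12 to 0.164). With no filter the calls of these genes, of HOXB7 and of FGF2 A_33_P3379886 were lost (0.0512 to 0.101), and with normexp those of HOXB7, ARNT and FGF2 A_33_P3379886 (0.121 to 0.598).

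None of the member differences called by limma changed sign in any alternative run. Spike-in scaling and no scaling shift all probes of an array alike. Member differences relative to the median of all probes in the same fit are therefore unchanged under either by construction, and give no check of the signs. The cause of the sign changes under the other alternatives was not tested. With normexp background correction, the Capan-1 differences became -0.0199 for NRP1 A_24_P135322 and 0.0122, -0.248 and 0.00473 for NRP2 A_24_P50801, A_23_P393727 and A_33_P3297415, and the difference between lines 0.0122 for NRP1 A_24_P135322. With quantile normalization, Capan-1 became -0.00627 for NRP1 A_24_P135322 and 0.0211 for NRP2 A_24_P50801, the difference between lines -0.162 for NRP2 A_33_P3297415 and -0.0781 for NRP1 A_24_P928052, and the parental difference of VEGFB -0.0494. Without scaling, NRP1 A_24_P928052 became -0.0218 in MIA PaCa-2, -0.0115 in Capan-1 and -0.0103 between lines, VEGFA A_24_P12401 -0.0178 and NRP1 A_24_P135322 -0.154 in Capan-1, and NRP2 A_33_P3297415 -0.0423 between lines. With spike-in scaling, which shifts all probes of Capan-1 down, Capan-1 became -0.315 and -0.0863 for VEGFA A_24_P12401 and A_23_P70398, -0.0277 for ANGPT2, -0.0149 for ANGPTL4 and -0.45 and -0.308 for NRP1 A_24_P135322 and A_24_P928052. The difference between lines became 0.113 and 0.388 for the same VEGFA probes, 0.391 for VEGFB, 0.308 for NRP1 A_24_P135322 and 0.389 for VEGFC, and the parental difference of VEGFB -0.238. With outlier spots kept, NRP1 A_24_P135322 was -0.00111 in Capan-1.

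With an array left out, the Capan-1 differences ranged from -0.029 to 0.0367 for NRP1 A_24_P135322, -0.11 to 0.107 for NRP2 A_24_P50801, -0.0796 to 1.04 for NRP2 A_23_P393727 and -0.289 to 0.0995 for NRP2 A_33_P3297415. The difference between lines ranged from -0.0273 to 0.124 for NRP1 A_24_P928052, -0.224 to 0.257 for NRP2 A_33_P3297415, -0.326 to 0.447 for NRP2 A_24_P50801, -0.0137 to 1.1 for NRP2 A_23_P393727, -0.255 to 0.064 for VEGFA A_23_P70398 and -0.231 to 0.0429 for VEGFC, and the parental difference of VEGFB from -0.0136 to 0.0456. Probes near background, such as ANGPT1, ANGPT2 and KDR, are limited by signal over background.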
